A study of Mus musculus with 24 samples.

Results

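The vitamin D hormone 1,25(OH)2D3 was given to mouse marrow-derived mesenchymal stem cells that had spent 7 days in osteogenic medium, and their RNA was compared with that of cells given vehicle. The comparison holds every RNA-seq library labelled osteogenic, day 7: 3 kept for 24 hours with the hormone at 100 nM and 3 kept with ethanol as the vehicle, 6 of the 24 libraries of the series. Marrow-derived mesenchymal stem cells are stromal cells that can form osteoblasts or adipocytes. They came from low-passage frozen stocks, were grown to confluence and were then moved to medium with β-glycerophosphate and ascorbic acid, which drives bone-forming differentiation and mineral deposition. The other libraries were undifferentiated cells (day 0), cells after 15 days in the same osteogenic medium, and cells after 7 days in an adipogenic medium of insulin, indomethacin and dexamethasone, each with 3 hormone and 3 vehicle libraries. The labels name no genetic change, and they do not say whether libraries of a group came from separate cultures. The p-values below therefore measure only the spread between libraries, which may be technical. Those of the test over all genes (limma) take that spread from all 24 libraries together.

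1,25(OH)2D3 enters cells and binds the vitamin D receptor, a nuclear receptor that pairs with a retinoid X receptor and binds DNA near its target genes, often far from their promoters. In cells of the osteoblast lineage the hormone is known to raise the enzyme that destroys it, to change matrix and mineralization genes, and to raise RANKL, the signal that drives osteoclast formation. It is also known to slow the division of many cell types.

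Expression was deposited as RPKM (a read count scaled by transcript length and library depth), and genes were compared on log2(RPKM + 1), a scale that understates the change of genes with low values. The depth estimated from steps between low values was 11.9 to 41.1 M reads in the vehicle libraries and 24.3 to 46.9 M reads in the hormone libraries, so that 3 reads on a transcript of 1 kilobase corresponded to 0.0639 to 0.252 RPKM. Olfactory and related receptor genes, which should be silent in these cells, give a measure of background. Their median was 0.208 to 0.404 RPKM with vehicle and 0.274 to 0.842 with hormone (exact permutation test, two-sided, p = 0.6, n = 3 and 3). Of 1444 tested, 0 passed the limma test for a hormone effect (19 higher and 1 lower at an unadjusted p below 0.05). These medians lie below 1 RPKM, and genes were tested if they reached 1 RPKM in 3 or more of all 24 libraries. Such low values leave little room for a call on log2(RPKM + 1), so the 0 says little about background. The highest background was in hormone replicate 1, which also had the most genes at 1 RPKM or more (14609, against 12221 to 12718 in the other 5 libraries). The summed RPKM was 630716 to 641015 with vehicle and 552741 to 597220 with hormone, groups that did not overlap (p = 0.1, the smallest value that 3 against 3 libraries allow in this exact test). The part of this lower sum in the falls below was not tested, and the counts under other scalings stand beside the first count of calls. Of the day 0 libraries, 5 of 6 were shallower and had a higher background (3.38 to 4.95 RPKM), with 19219 to 20956 genes at 1 RPKM or more. The day 0 libraries enter the fit through the shared estimate of spread and through the choice of genes to test. Genes that are low on day 7 could therefore be tested, and they count in each share of the genes tested.

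The cells carried the label's osteoblast markers. Vehicle cells on day 7 had 264 ± 11.9 RPKM of Ibsp (SD, n = 3), against 9.55 ± 0.514 on day 0, and 178 ± 10.0 RPKM of Dmp1 against 1.59 ± 0.397. Ibsp encodes bone sialoprotein and Dmp1 a matrix protein of late osteoblasts and osteocytes. Sp7, a transcription factor required for osteoblasts, was at 8.58 ± 1.61 RPKM against 1.22 ± 0.0839, and Col1a1, the main collagen of bone, at 186 ± 19.98 against 42.1 ± 2.94. The adipocyte genes Plin1 and Cidec were near 0 (0.0537 and 0.0837 RPKM), although Adipoq at 12.1 ± 0.656 RPKM and Pparg at 19.1 ± 3.08 RPKM were still present. Of the marker lists for other cells, 0 genes passed the limma test for a hormone effect among 6 macrophage and leukocyte, 6 osteoclast, 6 endothelial, 5 chondrocyte and 4 muscle and erythroid genes. Only 1, 3, 1, 3 and 1 genes of these lists, in that order, reached 1 RPKM in at least 3 of the 6 compared libraries. The test could say little about the others, which were low. At an unadjusted p below 0.05 there was 1 higher macrophage gene, 1 lower osteoclast gene and 1 lower chondrocyte gene. Their summed levels overlapped between the groups, as in the osteoclast list with 97.6 to 118 RPKM in vehicle and 112 to 128 RPKM in hormone libraries, most of which was Ctsk. The macrophage list summed to 6.81 to 14.5 RPKM over the 6 libraries and the endothelial list to 3.75 to 7.64 RPKM. In bulk RNA, fewer cells of a type and less RNA per cell cannot be told apart.

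After 24 hours of hormone, 614 genes were higher and 496 lower than with vehicle, among 21097 genes tested (limma, Benjamini-Hochberg adjusted p below 0.05). That is 5.26% of the genes tested, 2.91% higher and 2.35% lower. The shares higher and lower are the background for each count of list members below. Large changes were mostly rises: on the log2(RPKM + 1) scale, 123 genes were at least 2-fold higher and 53 at least 2-fold lower. On that scale 84.1% of the calls were changes of less than 2-fold. Some of these were 2-fold or more in mean RPKM, since the scale understates changes at low levels. The median log2 difference of all genes tested was 0.07. Groups of 3 libraries that did not overlap were found for 11.2% of genes in the higher and 6.60% in the lower direction, which is the background for each statement on overlap. Under median-ratio scaling the counts were 541 higher and 552 lower (49.5% of calls higher, against 55.3%), and under quantile scaling 479 and 413. Without vehicle replicate 2 they were 397 higher and 321 lower, the lowest of the 6 fits that each left out 1 library. With a filter at 5 RPKM, 674 genes were higher and 593 lower among 10738 tested. When only the 6 libraries compared were fitted, 280 were higher and 192 lower.

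**Figure D1:**
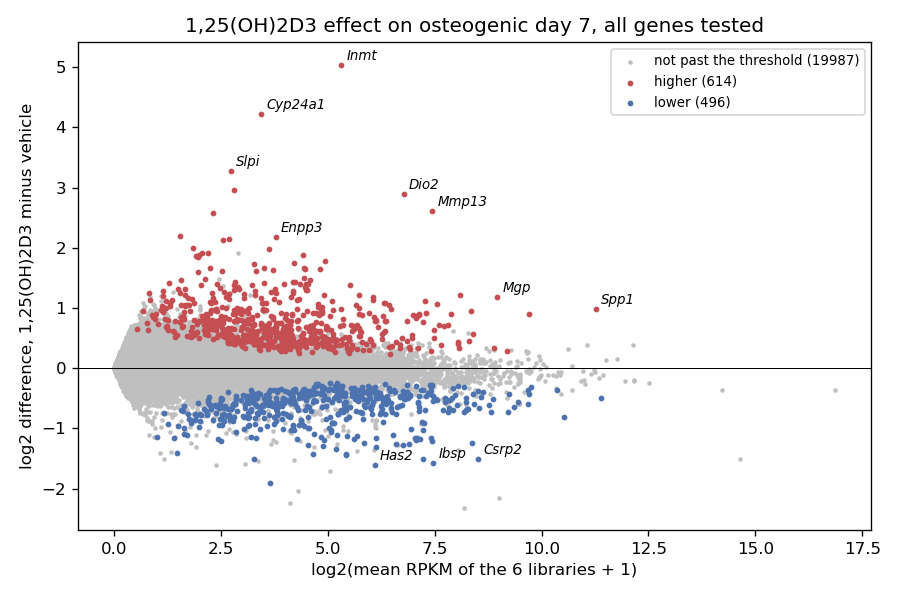
Log2 difference of hormone minus vehicle (vertical) against log2 of the mean RPKM of the 6 libraries plus 1 (horizontal), 1 point for each of the 21097 genes tested, with the 614 higher genes in red and the 496 lower genes in blue. The rises reach a log2 difference of 5.04 (Inmt), while the labelled falls end at -1.61 (Has2).

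The largest rise on the log2(RPKM + 1) scale, among genes with at least 5 RPKM, was that of Inmt, which encodes an enzyme that methylates indole amines. Its level was 1.49, 0.865 and 1.75 RPKM in the vehicle libraries and 64.1, 83.2 and 82.6 RPKM in the hormone libraries. Every hormone library stood far above every vehicle library, a 56.1-fold difference in mean RPKM and a log2 difference of 5.04 (SE 0.20, limma adjusted p = 4.66e-13). Cyp24a1, the enzyme that inactivates 1,25(OH)2D3 and the standard marker of receptor activity, was at 0.146, 0 and 0.181 RPKM with vehicle and at 23.2, 18.6 and 17.6 RPKM with hormone. It was thus close to the level of 3 reads without hormone and clearly present in all 3 hormone libraries (log2 difference 4.22, SE 0.19, limma adjusted p = 2.44e-12). Because the vehicle values lie near that floor, no fold is given for Cyp24a1. With a pseudocount of 0.1 the order turned, with log2 differences of 6.69 for Cyp24a1 and 5.75 for Inmt. Slpi, a secreted inhibitor of leukocyte proteases, was likewise at 0.335, 0 and 0.389 RPKM with vehicle and at 14.1, 9.33 and 9.70 RPKM with hormone (log2 difference 3.27, SE 0.27). The hormone libraries were again all above the vehicle libraries.

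Genes with a substantial level in vehicle cells also rose. Dio2, the deiodinase that converts thyroxine into the active thyroid hormone, went from 27.5, 22.8 and 25.1 RPKM to 188, 191 and 201 RPKM, 7.69-fold, with a log2 difference of 2.90 (SE 0.15). The collagenase gene Mmp13 went from 52.9, 52.9 and 38.2 RPKM to 296, 343 and 255 RPKM, 6.21-fold, with a log2 difference of 2.62 (SE 0.12, limma adjusted p = 2.44e-12). In both genes the lowest hormone value was several times the highest vehicle value. Enpp3, an ectoenzyme that splits nucleotides and releases pyrophosphate, rose from 3.98 ± 0.142 to 21.7 ± 3.57 RPKM (SD, n = 3 each). The remaining 6 of the 12 largest rises started below 2 RPKM: Klhl33 (0.433 to 7.5 RPKM), Tmem100 (1.38 to 9.59), Relt, a member of the TNF receptor family (1.15 to 8.51), Cib2 (0.707 to 5.60), the sialidase gene Neu3 (0.939 to 6.21) and Gdpd5 (0.671 to 5.30). Of these 12 rises, each stayed past the threshold when any of the 6 libraries was left out.

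**Figure D2:**
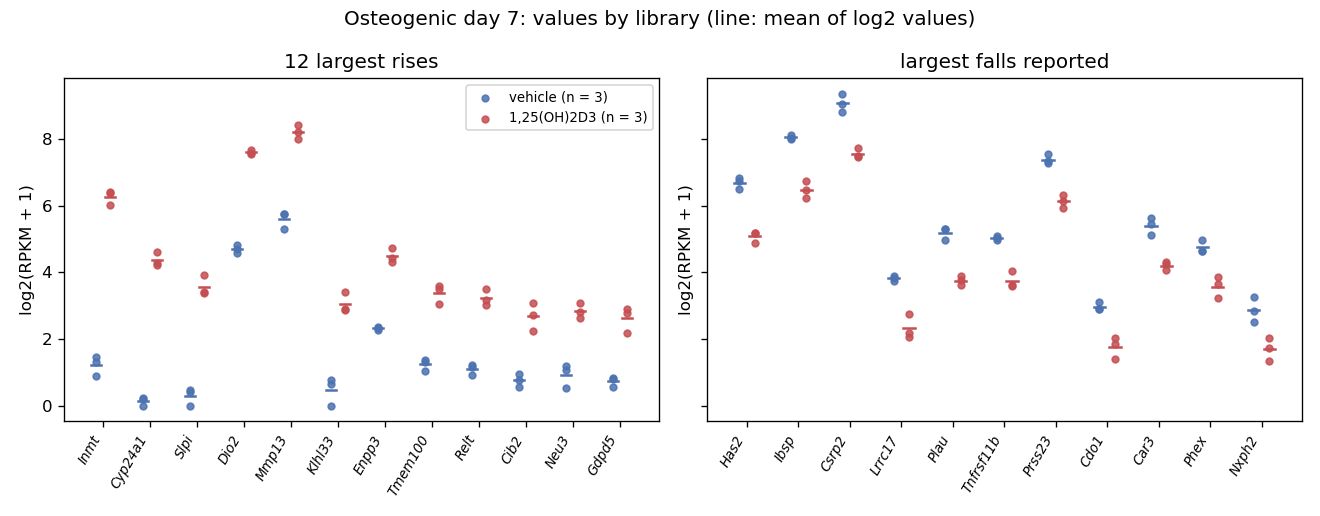
Log2(RPKM + 1) in each library of the 12 largest rises (left) and the largest falls named by the same rule and reported here (right), with vehicle in blue, hormone in red, and a line at the mean of each 3 libraries. No hormone library overlaps a vehicle library in any of these genes, as the rule that chose them required.

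Among 21 tested genes of the receptor, its partners and vitamin D metabolism, 3 were higher and 0 lower, with a median log2 difference of 0.22. Besides Cyp24a1 these were the receptor gene itself and the corepressor gene Ncor1. Vdr was at 1.40, 0.627 and 1.52 RPKM with vehicle and at 4.68, 3.47 and 2.49 RPKM with hormone, 3.00-fold higher without overlap (log2 difference 1.06, SE 0.18, limma adjusted p = 0.000412). These values are low, and the call of Vdr was lost when only the compared libraries were fitted and after background subtraction. Ncor1 rose from 9.39 ± 0.889 to 13.2 ± 2.36 RPKM (log2 difference 0.44, limma adjusted p = 0.0308), a call lost when any of 4 single libraries was left out. Rxra, which encodes the receptor's usual partner, was at 11.5 ± 1.34 and 14.0 ± 0.967 RPKM and did not pass (adjusted p = 0.182). Cyp27b1, which encodes the enzyme that makes the hormone, was at 0.256 ± 0.247 and 0.548 ± 0.499 RPKM.

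Of 26 tested genes described elsewhere as vitamin D targets, 13 were higher and 1 lower, against 2.91% and 2.35% of all genes, with a median log2 difference of 0.46. This list was written from general knowledge and with earlier results of these data known, and it is no independent evidence of direction. The list held Cyp24a1, Mmp13 and Enpp3, described above, and Enpp1, described below. It also held Nrip1, a nuclear receptor corepressor gene that rose from 6.76, 6.07 and 7.70 RPKM to 21.1, 17.0 and 17.7 RPKM (log2 difference 1.32, SE 0.11). Igfbp5, for a binding protein of insulin-like growth factors, rose from 0.711 ± 0.164 to 3.13 ± 0.915 RPKM. Cebpb, a transcription factor gene, rose from 22.4 ± 2.95 to 45.2 ± 8.59 RPKM (limma adjusted p = 0.025), although its call was lost when any of 4 single libraries was left out. Thbd, for the anticoagulant receptor thrombomodulin, went from 17.8 ± 0.931 to 28.8 ± 0.421 RPKM, and Gadd45a, a gene of growth arrest and DNA repair, from 87.1 ± 8.33 to 123 ± 4.0 RPKM. The gene that fell was Timp3, an inhibitor of matrix proteases, from 191 ± 10.9 to 102 ± 5.03 RPKM (log2 difference -0.89).

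The bone genes did not move as a block. Of 22 tested osteoblast genes 4 were higher and 3 lower (median log2 difference 0.20), and of 16 osteocyte and mineralization genes 5 were higher and 1 lower (0.26). Spp1, which encodes osteopontin, an acidic matrix protein that binds mineral, was at 1610, 1967 and 1388 RPKM with vehicle and at 3232, 3260 and 3273 RPKM with hormone. That is a rise of 1.97-fold in a gene that was already abundant (log2 difference 0.99, SE 0.10, limma adjusted p = 4.66e-07). Ibsp moved the other way, from 278, 256 and 258 RPKM to 74.7, 87.2 and 106 RPKM, 2.96-fold lower (log2 difference -1.57, SE 0.10, limma adjusted p = 1.12e-09). Both proteins belong to the same family of acidic bone matrix proteins, and their libraries did not overlap in either direction. Omd, for the keratan sulfate proteoglycan osteomodulin, fell from 50.3 ± 10.7 to 33.4 ± 2.33 RPKM, a call lost in 5 of the 6 fits that left out 1 library. The osteoblast counts were small and moved: 2 were higher without vehicle replicate 2 or hormone replicate 1, and 1 was lower in each left-out fit except those without vehicle replicate 3 or hormone replicate 1. With a replicate block 1 was lower.

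In the mineralization list, Enpp1, which encodes the main enzyme that makes extracellular pyrophosphate, an inhibitor of mineral growth, went from 31.7, 37.4 and 34.3 RPKM to 77.4, 67.9 and 64.3 RPKM, 2.03-fold without overlap (log2 difference 1.00, SE 0.13). Mgp, for the mineral-inhibiting matrix Gla protein, went from 343, 285 and 269 RPKM to 813, 804 and 480 RPKM (log2 difference 1.19, SE 0.19, limma adjusted p = 0.000247). Its value in hormone replicate 3 was well below the other hormone values but above all vehicle libraries. Fam20c, the kinase that phosphorylates secreted matrix proteins, rose from 14.2 ± 2.82 to 26.7 ± 1.04 RPKM. Phex, a membrane peptidase of osteoblasts and osteocytes whose loss causes phosphate wasting, fell from 23.9, 30.6 and 23.8 RPKM to 11.6, 13.4 and 8.33 RPKM (log2 difference -1.17, SE 0.17). Of 13 calcium and phosphate transport genes, 2 were higher and 0 lower: the plasma membrane calcium pump gene Atp2b1, from 41.1 ± 0.239 to 91.3 ± 10.9 RPKM, and the phosphate transporter gene Slc20a2, from 9.70 ± 0.865 to 13.6 ± 1.32 RPKM, the latter call lost without vehicle replicate 2 or hormone replicate 1.

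The master regulators and several classical markers of the osteoblast did not pass the test. Runx2 was at 7.61, 7.72 and 7.52 RPKM with vehicle and at 9.27, 7.46 and 6.36 RPKM with hormone, and the 95% interval of its log2 difference ran from -0.36 to 0.36. Sp7 had an interval of -0.63 to 0.06, Alpl (alkaline phosphatase) one of -0.11 to 0.54 and Col1a1 one of -0.10 to 0.48. These intervals bound the change but do not show that there was none. The osteocalcin genes Bglap and Bglap2 were wide: Bglap was at 26.9, 29.2 and 32.2 RPKM with vehicle and at 68.0, 53.3 and 23.0 RPKM with hormone (log2 difference 0.56, interval -0.01 to 1.14, limma adjusted p = 0.354). Hormone replicate 3 alone lay below the vehicle libraries, and without it the log2 difference was 1.01 (limma adjusted p = 0.00525). Bglap and Bglap2 are near-identical neighbours whose reads the authors' counting could have split either way. Dmp1 (178 ± 10.0 to 140 ± 35.7 RPKM, adjusted p = 0.318) and the parathyroid hormone receptor gene Pth1r (3.42 ± 0.830 to 2.37 ± 0.530 RPKM, adjusted p = 0.466) did not pass either.

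**Figure D3:**
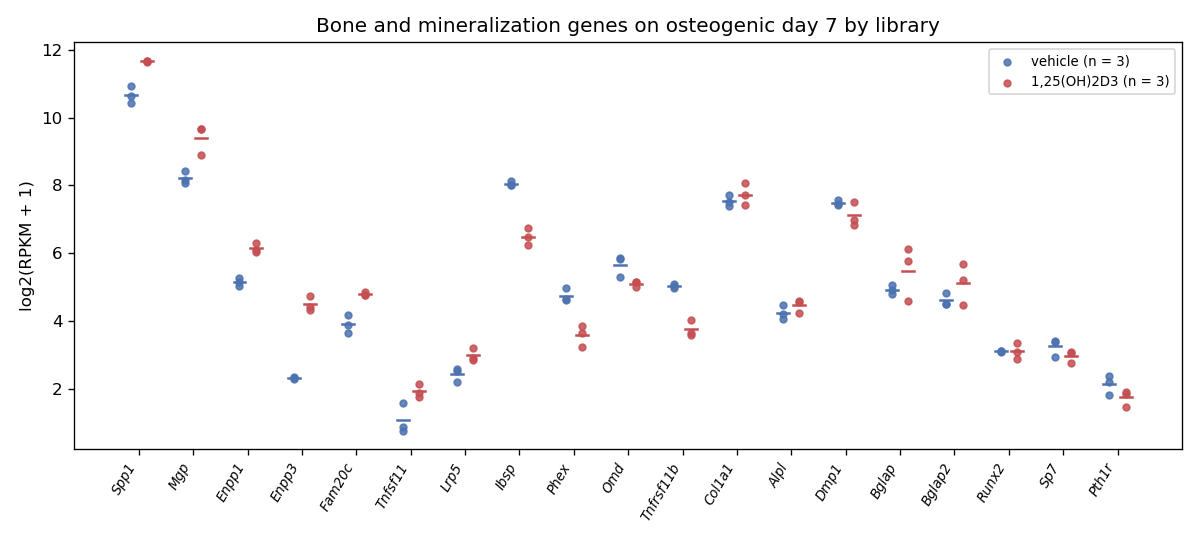
Log2(RPKM + 1) of 19 bone and mineralization genes in each vehicle (blue) and hormone (red) library, with a line at each mean. Spp1 (1655 to 3255 RPKM) and Ibsp (264 to 89.1 RPKM) moved apart, while the Runx2 libraries overlapped and the hormone values of Bglap spread from 23.0 to 68.0 RPKM.

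Among 17 tested factors that direct osteoclasts, 2 were higher and 1 lower. Tnfsf11, which encodes RANKL, was low, at 1.96, 0.693 and 0.838 RPKM with vehicle and 2.63, 3.39 and 2.40 RPKM with hormone (log2 difference 0.85, SE 0.24, limma adjusted p = 0.0363). The groups did not overlap, but the call was lost in 5 of the 6 fits that left out 1 library, with adjusted p up to 0.21 without vehicle replicate 2. Tnfrsf11b, which encodes osteoprotegerin, the secreted decoy that blocks RANKL, changed more firmly. It fell from 32.9, 30.1 and 31.9 RPKM to 15.3, 11.4 and 11.1 RPKM, 2.51-fold (log2 difference -1.28, SE 0.16, limma adjusted p = 1.08e-05). The remaining called gene, Wnt5a, a secreted noncanonical Wnt ligand, rose from 24.4 ± 1.69 to 35.4 ± 1.08 RPKM.

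Matrix-degrading enzymes and their inhibitors changed in both directions, with 5 of 26 tested genes higher and 3 lower. Beside Mmp13, the stromelysin gene Mmp3 rose from 13.7, 14.2 and 10.3 RPKM to 42.2, 55 and 42.2 RPKM (log2 difference 1.79, SE 0.27, limma adjusted p = 0.000182). Adamts1, an aggrecan-cleaving protease gene, rose from 120 ± 2.40 to 255 ± 47.9 RPKM, the membrane protease gene Mmp16 from 8.06 ± 0.431 to 15.6 ± 0.173 RPKM and the procollagen-processing gene Adamts2 from 29.8 ± 2.01 to 41.7 ± 6.11 RPKM, the last of these calls being lost in 3 of the 6 fits that left out 1 library. Plau, the urokinase gene, went from 38.2, 30.5 and 38.1 RPKM to 12.7, 13.7 and 11.2 RPKM, 2.84-fold lower without overlap. The promoters of Mmp13 and Mmp3, from the RefSeq table on GRCm38.p6, are shown because both rose and both hold the AP-1 letters TGANTCA, given here in capitals, in the 250 bases before the start. The deposited values were made on another build, so the positions are those of the table: chr9:7272264-7272513 (plus strand) and chr9:7445572-7445821 (plus strand).
Mmp13: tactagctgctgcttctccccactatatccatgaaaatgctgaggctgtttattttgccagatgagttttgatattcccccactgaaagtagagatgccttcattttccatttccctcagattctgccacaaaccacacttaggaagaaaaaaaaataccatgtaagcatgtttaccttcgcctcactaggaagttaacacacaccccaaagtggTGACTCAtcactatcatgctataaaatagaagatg
Mmp3: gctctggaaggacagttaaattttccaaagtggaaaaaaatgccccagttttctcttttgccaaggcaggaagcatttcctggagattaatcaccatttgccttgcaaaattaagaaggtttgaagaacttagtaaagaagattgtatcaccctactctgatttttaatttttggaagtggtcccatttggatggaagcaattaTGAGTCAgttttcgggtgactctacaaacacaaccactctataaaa
The match begins 35 bases before the start in Mmp13 and 46 bases before it in Mmp3, and as a palindrome it reads on both strands. It was found in 5 of 18 protease and inhibitor promoters with an entry (27.8%: Mmp3, Mmp10, Mmp12, Mmp13 and Plaur), against 7.82% of all 27025 genes in the table. Of these, Mmp10, Mmp12 and Plaur were not among the higher genes of the list. The higher genes Adamts1, Mmp16 and Adamts2 had no match or no entry. Among all higher genes with an entry the share was 7.84%, and among all lower genes 6.51%. The promoter of Prss23, a serine protease gene outside this list that fell, also held a match. A direct repeat of vitamin D receptor half-sites with 3 bases between them was also searched (each GGTCA with the second base G or T and the fourth C or G, after 1 free base, either strand). Of the 39 genes named by size or always named, 25 had an entry, and 0 of these held a match, against 0.718% of all. Cyp24a1 had no entry, so its promoter was not searched. At so low a share, 0 of 25 does not set these genes apart from all genes.

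The largest fall was that of Has2, which encodes the main enzyme that spins hyaluronan, a long sugar of the pericellular coat. It went from 89.2, 113 and 106 RPKM to 35.6, 28.6 and 35.0 RPKM, 3.11-fold lower (log2 difference -1.61, SE 0.25, limma adjusted p = 0.000193). Of 10 hyaluronan genes 3 were lower and 0 higher. The other 2 were Tmem2, from 101 ± 11.1 to 59.0 ± 4.35 RPKM, and Hmmr, a hyaluronan receptor gene that is also a mitotic spindle gene, from 12.5 ± 0.889 to 7.81 ± 1.09 RPKM. The call of Tmem2 was lost when the largest transcript was used in place of the sum. Csrp2, for a LIM protein of contractile cells, was abundant and fell from 525, 651 and 451 RPKM to 173, 212 and 179 RPKM (log2 difference -1.51, SE 0.13). Further large falls were in Lrrc17 (13.2 to 4.14 RPKM), a secreted protein gene, the serine protease gene Prss23 (167 to 69.2), the cysteine dioxygenase gene Cdo1 (6.85 to 2.46), the carbonic anhydrase gene Car3 (41.4 to 17.4) and Nxph2 (6.50 to 2.32). The call of Nxph2 was lost without vehicle replicate 2 (limma adjusted p = 0.118) or without hormone replicate 3, and that of Hmmr without vehicle replicate 2 or without hormone replicate 1 (0.0556).

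Structural matrix genes fell more often than they rose, 9 of 31 lower and 2 higher, with a median log2 difference of -0.25. Over all genes tested, 2.35% were lower and 2.91% higher. Tnc, for the adhesion-modulating glycoprotein tenascin C, led the falls, from 94.1, 94.6 and 101 RPKM to 40.1, 39.1 and 49.0 RPKM (log2 difference -1.16, SE 0.11). Aspn, for a proteoglycan that binds collagen, fell from 48.0 ± 6.0 to 29.4 ± 6.83 RPKM, a call lost in 4 of the 6 fits that left out 1 library (limma adjusted p up to 0.0733). Postn, for periostin, fell from 118 ± 7.87 to 75.4 ± 9.24 RPKM. Thbs2, for thrombospondin 2, was abundant and fell from 994 ± 28.3 to 661 ± 36.0 RPKM. The others were Loxl3, Thbs1, Col6a1, Col6a2 and Col12a1, with log2 differences from -0.67 to -0.40, of which Col12a1 lost its call in 3 of those 6 fits. The rises were Fn1, the fibronectin gene, from 222, 206 and 236 RPKM to 469, 441 and 384 RPKM (log2 difference 0.96, SE 0.14), and the collagen cross-linking gene Loxl2 from 7.09 ± 0.645 to 12.6 ± 1.02 RPKM. The median of the list was below 0 while that of all genes was 0.07.

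Contractile genes, listed as smooth muscle and pericyte markers, were lower in 6 of 14 cases and higher in 0 (median log2 difference -0.42), against 2.35% of all genes lower. When only the 6 libraries compared were fitted, 3 were lower. Tpm1, a tropomyosin gene of actin filaments, went from 2015, 1602 and 2017 RPKM to 957, 1145 and 1114 RPKM, a fall without overlap (log2 difference -0.80, SE 0.08), although the call rested on the summed transcripts and was lost with the largest transcript alone. Tagln, for the actin-binding protein transgelin, fell from 128 ± 2.85 to 83.3 ± 12.1 RPKM, and Lmod1, an actin filament nucleator gene, from 5.41 ± 0.537 to 2.56 ± 0.704 RPKM. Tpm2 fell from 99.5 ± 4.97 to 69.0 ± 13.0 RPKM, with its call lost without any of 4 single libraries.

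Cell division genes fell together. Of 28 tested proliferation genes, 21 were lower and 0 higher, against 2.35% of all genes lower, and the log2 difference was below 0 in all 28 (median -0.74, from -1.15 to -0.22). Between 18 and 19 of them were lower when 1 library was left out, 22 under median-ratio and 19 under quantile scaling, 14 when only the 6 libraries compared were fitted and 9 after background subtraction. Top2a, which encodes the topoisomerase that untangles chromosomes, went from 45.1, 48.9 and 42.1 RPKM to 23.0, 23.2 and 24.5 RPKM, 1.92-fold lower (log2 difference -0.91, SE 0.09, limma adjusted p = 5.44e-07). Kif11, a motor of the mitotic spindle, went from 28.8, 25.6 and 22.5 RPKM to 11.9, 13.5 and 13.1 RPKM (log2 difference -0.94, SE 0.11). Ccna2, for cyclin A2, fell from 30.1 ± 4.14 to 14.7 ± 2.14 RPKM and Rrm2, a subunit of the enzyme that makes DNA building blocks, from 27.7 ± 1.08 to 13.8 ± 1.18 RPKM. Each of these falls was close to 2-fold and without overlap, so that the genes were reduced and not absent. A list of replication-dependent histone genes, chosen after values were seen, had 43 of 61 tested lower and 0 higher (median -0.80), and 25 lower when only the 6 libraries were fitted. Among them, Hist1h1a fell from 63.6, 55.7 and 67.7 RPKM to 24.8, 22.2 and 20.03 RPKM. Histone genes of a class are near-identical in sequence, so reads could be split between them in the authors' counting.

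Many of these promoters share the CCAAT box, a site bound by the factor NF-Y. The promoters of Top2a and Cdk1 are printed as examples with several matches, with CCAAT or its reverse complement ATTGG in capitals, at chr11:99024190-99024439 (minus strand) and chr10:69352913-69353162 (minus strand) of GRCm38.p6.
Top2a: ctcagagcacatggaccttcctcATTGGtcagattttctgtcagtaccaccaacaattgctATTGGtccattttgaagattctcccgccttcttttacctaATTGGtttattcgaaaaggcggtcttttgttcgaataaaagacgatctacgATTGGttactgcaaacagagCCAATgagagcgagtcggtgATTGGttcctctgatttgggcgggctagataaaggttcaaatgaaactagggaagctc
Cdk1: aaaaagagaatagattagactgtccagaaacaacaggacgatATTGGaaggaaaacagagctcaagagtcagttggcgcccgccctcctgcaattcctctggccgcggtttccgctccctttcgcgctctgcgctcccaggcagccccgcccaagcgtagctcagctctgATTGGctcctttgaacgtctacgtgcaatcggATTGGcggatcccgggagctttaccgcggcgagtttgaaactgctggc
The 250 bases before the start hold 6 matches in Top2a and 3 in Cdk1. Of 23 proliferation genes with a promoter entry, 18 held a match (78.3%), against 37.5% of all genes in the table. The letters TTTGAA of the cell cycle homology region were in 7 of these 23 (30.4%, against 18.3% of all). Among all lower genes with an entry, 156 of 307 held CCAAT (50.8%), among all higher genes 163 of 408 (40.0%), and among all genes tested 39.9%. These motifs were picked with the results known, and a match is a stretch of letters and not a measured binding site.

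Of the cholesterol synthesis genes, 12 of 20 tested were lower and 0 higher (median log2 difference -0.44), against 2.35% of all genes lower. Cyp51, which encodes lanosterol demethylase, went from 118, 108 and 110 RPKM to 61.2, 73.9 and 66.2 RPKM (log2 difference -0.73, SE 0.09, limma adjusted p = 1.11e-05). Idi1, for the isomerase that makes an isoprenoid building block, went from 53.2, 54.6 and 42.9 RPKM to 25.0, 29.5 and 35.9 RPKM (log2 difference -0.73, SE 0.12). Fdps, for farnesyl diphosphate synthase, fell from 41.3 ± 2.77 to 23.1 ± 2.64 RPKM and Sc4mol, for sterol methyl oxidase, from 253 ± 24.3 to 158 ± 27.2 RPKM. No hormone library overlapped a vehicle library in these 4 genes. When 1 library was left out, 9 to 11 of the 20 were lower, and 6 when only the 6 libraries compared were fitted. Median-ratio and quantile scaling gave 12 and 10. All 14 promoters of the list with an entry held a CCAAT box, as in Cyp51 at chr5:4104698-4104947 (minus strand) and Idi1 at chr13:8885356-8885605 (plus strand), printed with it in capitals.
Cyp51: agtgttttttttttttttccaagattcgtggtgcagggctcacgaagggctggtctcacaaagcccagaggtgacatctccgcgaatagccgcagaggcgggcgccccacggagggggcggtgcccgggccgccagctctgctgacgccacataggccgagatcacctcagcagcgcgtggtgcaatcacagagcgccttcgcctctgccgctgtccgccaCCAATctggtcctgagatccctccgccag
Idi1: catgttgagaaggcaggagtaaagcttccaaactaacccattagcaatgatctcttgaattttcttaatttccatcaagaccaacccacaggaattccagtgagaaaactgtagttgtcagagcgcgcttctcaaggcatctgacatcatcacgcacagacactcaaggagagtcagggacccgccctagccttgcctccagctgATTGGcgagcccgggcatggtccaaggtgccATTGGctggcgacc
The sterol response element letters TCACNCCAC, on either strand, were in 1 of these 14 promoters, against 1.22% of all genes in the table. That promoter is of Hmgcs1, a listed gene for which no expression value was used here.

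Signalling genes changed in both directions, where 2.91% of all genes tested were higher and 2.35% lower. Of 13 genes for insulin-like growth factor ligands, receptors and binding proteins, 4 were higher and 0 lower (median log2 difference 0.21). They were Igfbp5, Igfbp4 (62.6, 57.2 and 57.6 RPKM to 133, 122 and 101 RPKM), the insulin receptor gene Insr (7.10 ± 0.203 to 10.4 ± 0.660 RPKM) and the adaptor gene Irs2 (0.343 ± 0.249 to 2.11 ± 0.800 RPKM). Of 23 Wnt genes 5 were higher and 2 lower, with 3 higher without vehicle replicate 1 or 2 or hormone replicate 1 or 3. The higher genes included the coreceptor gene Lrp5, a described vitamin D target (4.44 ± 0.743 to 6.95 ± 1.09 RPKM, limma adjusted p = 0.0225, lost without vehicle replicate 2 or hormone replicate 1), and Notum, which encodes a Wnt inactivating enzyme (1.08 ± 0.188 to 2.17 ± 0.138 RPKM), a call lost in 5 of the 6 fits that left out 1 library (adjusted p up to 0.16). Of 27 TGF-beta and BMP genes 3 were higher and 4 lower, counts that fell to 1 higher (without vehicle replicate 1 or hormone replicate 1) and to 1 or 2 lower (without any of the vehicle libraries or hormone replicate 2). The BMP antagonist gene Grem1 rose from 8.94 ± 1.74 to 14.6 ± 1.88 RPKM, a call lost in 4 of the 6 fits that left out 1 library.

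Vegfa, which encodes the main growth factor of blood vessels, rose from 98.8, 85.6 and 107 RPKM to 219, 183 and 233 RPKM, 2.18-fold without overlap (log2 difference 1.11, SE 0.11). The list of glycolysis and hypoxia-responsive genes that holds it had 2 higher (Vegfa and Hk1) and 3 lower (Tpi1, Pfkp and Hk2) of 21. Of these, Hk1 lost its call in 3 of the 6 fits that left out 1 library, Hk2 in 2 and Pfkp in 1. Of 21 adipocyte genes 2 were higher and 0 lower: Lpl, for lipoprotein lipase, from 83.8 ± 3.40 to 145 ± 7.00 RPKM, and the lipid droplet gene Plin2 from 88.2 ± 6.21 to 116 ± 13.7 RPKM, a call lost without vehicle replicate 2 or hormone replicate 3. Pparg, the adipocyte master regulator, did not pass (19.1 ± 3.08 and 21.2 ± 1.41 RPKM, interval of the log2 difference -0.08 to 0.37). Of 23 interferon-responsive genes, 0 passed in either direction by limma, with 6 lower and 0 higher at an unadjusted p below 0.05. Of 19 chemokine ligand genes 1 passed, Cxcl14, which fell from 3.02, 2.76 and 2.05 RPKM to 1.08, 0.749 and 0.136 RPKM. That call was lost in 3 of the 6 fits that left out 1 library (limma adjusted p up to 0.0887) and with a pseudocount of 0.1. Of 23 genes of oxidative phosphorylation and the citrate cycle, 1 was higher (Ogdh) and 1 lower (Cycs). That is 4.35% each way, near the 2.91% and 2.35% of all genes tested. Both calls were lost in 4 of the 6 fits that left out 1 library.

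**Figure D4:**
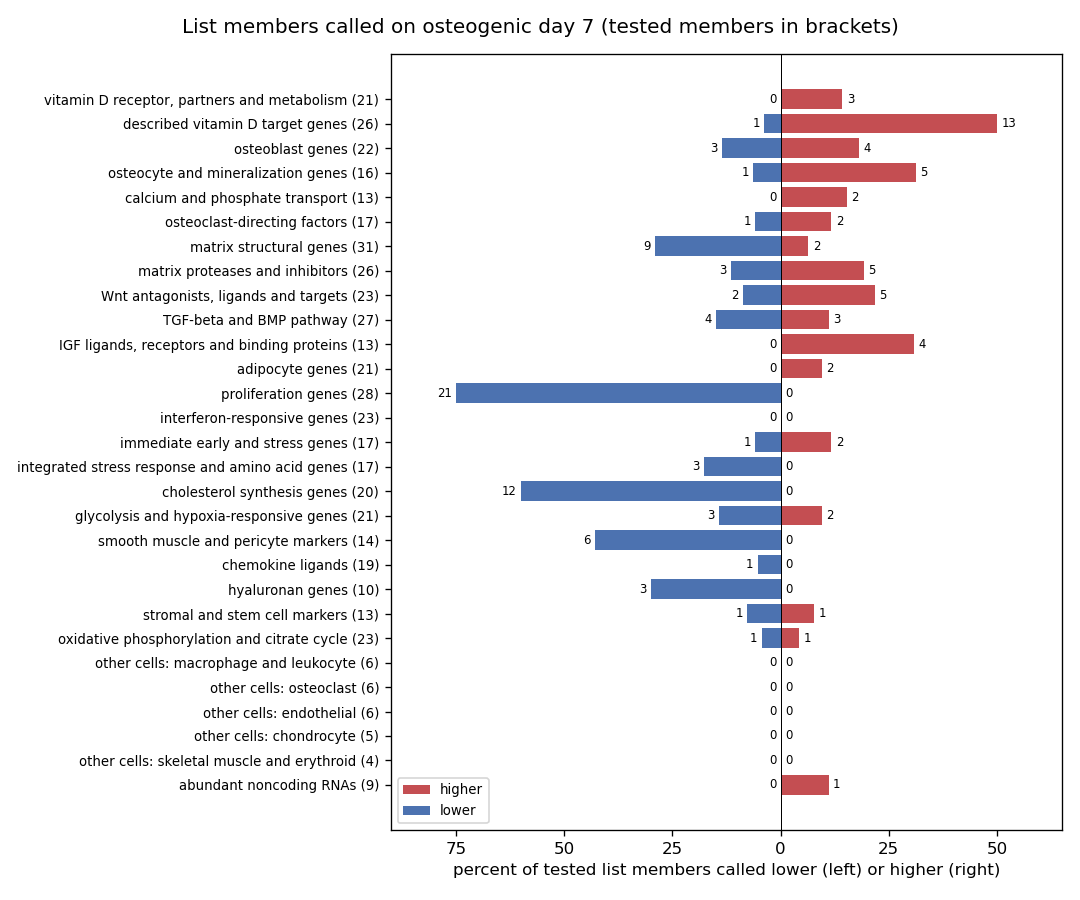
Percent of the tested members of each of 29 gene lists that were called lower (blue, left) or higher (red, right) on osteogenic day 7, with the number called beside each bar and the number tested in brackets. Described vitamin D targets were called higher most often (13 of 26), while proliferation (21 of 28) and cholesterol synthesis genes (12 of 20) were called lower.

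The same treatment was given on osteogenic day 15 and on adipogenic day 7, in libraries not shared with osteogenic day 7. On day 15 it changed 111 genes upward and 52 downward (0.526% and 0.246% of genes tested, 0.773% in all), and on adipogenic day 7, 318 upward and 121 downward (1.51% and 0.574%, 2.08% in all). Of the 111 genes higher on day 15, 108 were also higher on day 7, which is 97.3% of the day 15 list and 17.6% of the day 7 list, and of the 52 lower genes 38 were shared (73.1% and 7.66%). With adipogenic day 7 the shared genes were 166 higher (52.2% of the adipogenic and 27.0% of the osteogenic list) and 40 lower (33.1% and 8.06%). In the adipogenic cells 4 of the genes higher in osteogenic cells were lower, and 14 of the lower ones were higher. No gene was called in opposite directions on the osteogenic days.

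A test of the difference itself called 28 genes with a more positive and 11 with a more negative effect on day 7 than on day 15 (0.133% and 0.0521% of genes tested, 0.185% in all). These counts moved with single libraries, from 10 to 57 and from 2 to 14 over fits that each left out 1 library. They were 10 and 2 without hormone replicate 1 of day 15, and 57 and 14 without hormone replicate 3 of day 7. Inmt rose on both days but less on day 15, from 2.29 to 14.6 RPKM (difference of the log2 effects 2.78, SE 0.29, limma adjusted p = 3.53e-05). Mmp13 went from 65 to 151 RPKM on day 15, an effect smaller by 1.41 on the log2 scale (SE 0.17, limma adjusted p = 0.000252). Car3 fell on day 7 and was at 10.4 and 13.8 RPKM on day 15, where it did not pass (difference -1.58, SE 0.22, limma adjusted p = 0.00132). The division genes Kif11, Prc1 and Uhrf1 also differed: Kif11 was at 16.8 RPKM with vehicle and 15.0 RPKM with hormone on day 15, against the fall from 25.6 to 12.8 RPKM on day 7 (difference -0.79, limma adjusted p = 0.0277). Of the 28 proliferation genes, 0 passed on day 15 by limma (8 lower at an unadjusted p below 0.05) and 1 on adipogenic day 7, with medians of -0.21 and -0.14, and the vehicle level of Kif11 on adipogenic day 7 was only 2.49 RPKM. The list as a whole was not tested for a difference between states.

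Between osteogenic and adipogenic day 7 the effects differed in 384 genes (1.82%), 180 more positive (0.853%) and 204 more negative (0.967%) in osteogenic cells. Mmp13 rose 6.21-fold in osteogenic cells and fell in adipogenic cells, from 26.1 to 17.1 RPKM (difference of the log2 effects 3.20, SE 0.17, limma adjusted p = 7.07e-11). Dio2 was high in osteogenic cells but at 0.667 and 1.01 RPKM in adipogenic cells (difference 2.65, SE 0.21), and Slpi was at 0.0147 and 0.314 RPKM there (difference 2.92, SE 0.39). Cyp24a1 rose in both, to 19.8 RPKM in osteogenic and 3.10 RPKM in adipogenic cells (difference 2.51, SE 0.27). Ibsp fell in both and further in adipogenic cells, from 104 to 3.23 RPKM (difference 3.07, SE 0.15). Smoc2, a matricellular protein gene, rose in both, from 17.7 to 29.3 RPKM and from 1.29 to 10.2 RPKM (difference -1.61, SE 0.14). Ttc39c, Col16a1, Elfn1 and Nes rose in adipogenic cells and did not pass in osteogenic cells, with differences of -2.19, -1.87, -1.87 and -1.78. The rise of Spp1 had a log2 size of 0.99 in each medium, with a standard error of 0.14 for the difference.

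**Figure D5:**
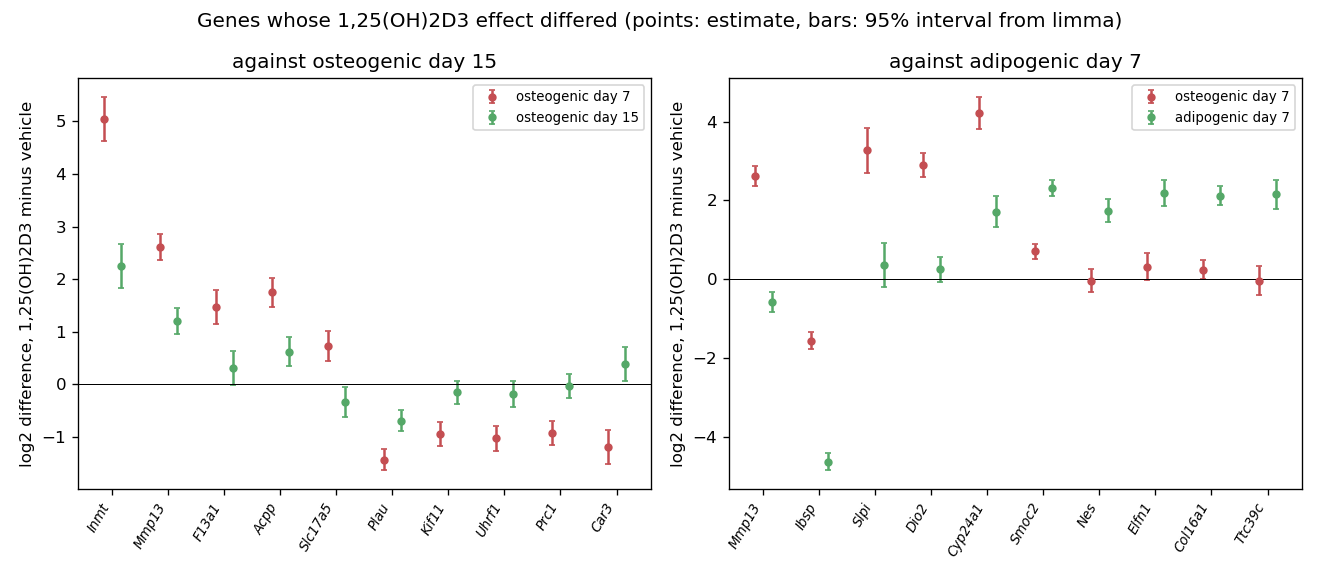
Log2 difference of hormone minus vehicle with its 95% interval from limma, for the 10 genes that differed most between osteogenic day 7 (red) and day 15 (green, left) and the 10 that differed most between osteogenic and adipogenic day 7 (green, right). Inmt reached 5.04 on osteogenic day 7 and 2.26 on day 15, and Mmp13 had opposite signs in the 2 media (2.62 and -0.59).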

How the data were processed

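RNA was extracted, depleted of ribosomal RNA and made into strand-specific libraries, per the labels' protocols. Reads were aligned to mm9 with TopHat, per the submitters' processing notes, while the counting tool and annotation are not given in the sources used here. The authors deposited RPKM values, 30795 transcripts in each of 24 libraries. They were summed over 25410 gene symbols (3463 with several transcripts). Dates stood in place of symbols for 40 transcripts, which were dropped, so 25385 genes remained.

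The 21097 genes that reached 1 RPKM in 3 or more libraries were tested with limma 3.58.1 (R 4.3.3) on log2(RPKM + 1), in a linear model of the 8 groups over all 24 libraries, with trend and robust empirical Bayes. Benjamini-Hochberg adjustment ran over all genes tested in each comparison, with a threshold of 0.05. Single values were compared by exact two-sided permutation tests (scipy 1.17.1). Depth was estimated from 150 low values per library, of which 72.0 to 86.0% were whole reads to a tolerance of 0.1, so depth is approximate. On simulated data with 21097 genes, the day 7 test recovered 50.0% of 1.5-fold rises, 88.0% of 2-fold rises, 100% of 4-fold rises and 88.0% of 2-fold falls (50 genes each). The changed genes were drawn only from those at 5 RPKM or more with vehicle, with independent normal noise. Recovery at lower levels was not measured. Replicate numbers were not taken to pair the libraries.

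Genes were named as the 12 largest rises and 12 largest falls among called genes whose libraries did not overlap and whose higher group averaged 5 RPKM or more, leaving out predicted, clone, antisense, small RNA, pseudogene and histone genes. To these were added up to 4 called members of each list, 20 genes always given, and 5 each way for each difference of effects. Some genes that this rule names are not reported here. Other genes named in lists were chosen after their values were seen. The comparison, the gene lists and this rule were chosen with earlier results of these data known. The lists of histone, MAP kinase feedback, DNA replication complex and kinetochore genes, all motifs except the receptor's, and 3 alternatives were chosen after seeing the data. Motifs were searched in the 250 bases before each start in a RefSeq table on GRCm38.p6, in place of its whole promoter window. The alternatives were another pseudocount (0.1), other filters (none, 5 RPKM, a mean of 20 RPKM), median-ratio and quantile scaling, a replicate block, non-robust empirical Bayes without a trend, a fit restricted to the compared groups, the largest transcript, background subtraction, a fit without day 0, the 2 deepest libraries of each group, and leaving out each library in turn.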

Additional observations from a re-analysis of the deposited data

Results flagged for a closer look

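The genes below stood out because the hormone effect on osteogenic day 7 differed from that in another state, by limma's test of the difference itself, and were the 5 with the most positive and the 5 with the most negative difference of log2 effects for each pair of states. Against osteogenic day 15 the effect on day 7 was more positive for Inmt (2.78), Mmp13 (1.41), F13a1 (1.16), Acpp (1.12) and Slc17a5 (1.07). F13a1, for the transglutaminase subunit of coagulation factor XIII, rose from 11.8 to 34.4 RPKM on day 7, while on day 15 it was at 51.9 and 64.6 RPKM. Slc17a5, for the lysosomal sialic acid exporter, rose from 3.09 to 5.81 RPKM on day 7 and was at 4.78 and 3.55 RPKM on day 15. The effect was more negative for Car3 (-1.58), Prc1 (-0.90), Uhrf1 (-0.84), Kif11 (-0.79) and Plau (-0.74). Of these 10 genes, each lost the call in at least 1 alternative except Inmt and Mmp13.

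Against adipogenic day 7 the effect was more positive for Mmp13 (3.20), Ibsp (3.07), Slpi (2.92), Dio2 (2.65) and Cyp24a1 (2.51), and more negative for Ttc39c (-2.19), Col16a1 (-1.87), Elfn1 (-1.87), Nes (-1.78) and Smoc2 (-1.61). For Ibsp the positive value means a smaller fall, since it fell by 1.57 on the log2 scale in osteogenic and by 4.64 in adipogenic cells. Col16a1, for a minor collagen of the matrix, was at 6.11 and 7.32 RPKM in osteogenic cells and rose from 1.18 to 8.38 RPKM in adipogenic cells. Both comparisons use the same 6 osteogenic day 7 libraries.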

How the results depend on the processing

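Over 31 alternatives, 137 values for named genes gave 2315 results in the same direction and on the same side of the threshold, 314 that fell short of it, 1 that newly passed and 8 of the other sign. Of 104 named genes called on day 7, 60 kept the call in every alternative run. The 8 were genes near 0 throughout: Runx2 at 0.0085, 0.013 and 0.11 (without vehicle replicate 2, hormone replicate 2 and hormone replicate 3; range without 1 library -0.13 to 0.11), Ttc39c at 0.021 (without hormone replicate 3; -0.11 to 0.021), and Nes at 0.017, 0.023 and 0.022 (without vehicle replicate 3, hormone replicate 1 and hormone replicate 2; -0.17 to 0.023) and at 0.082 (2 deepest libraries). Their log2 differences over all libraries did not pass the test.

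Counts of higher and lower genes on osteogenic day 7 were 280 and 192 when only its 6 libraries were fitted, 319 and 322 after background subtraction, and 255 higher among genes averaging 20 RPKM or more (368 lower, 40.9% of calls higher against 55.3%). Leaving out 1 library gave 397 to 593 higher and 321 to 525 lower. On day 15 they were 45 and 18, then 56 and 26, and 54 higher, with 72 to 87 and 21 to 37 when 1 library was left out. Lower genes on day 15 were 34 with median-ratio scaling, 29 with quantile scaling and 31 with plain empirical Bayes. On adipogenic day 7, higher genes were 207 after background subtraction and 174 at 20 RPKM, lower genes 74 in the narrow fit, and 235 to 246 and 86 to 98 without 1 library. The difference from day 15 gave 71 and 37 with a filter at 5 RPKM, 10 and 2 with plain empirical Bayes, 6 and 2 in the narrow fit, 4 and 0 after background subtraction, 8 and 3 without day 0, 13 and 1 with the 2 deepest libraries, 24 lower with median-ratio scaling, 40 and 19 at 20 RPKM, and 10 to 57 and 2 to 14 without 1 library. The difference from adipogenic cells gave 98 and 98 in the narrow fit, 95 and 132 after background subtraction, 113 higher at 20 RPKM, 133 lower with quantile scaling, and 122 to 178 and 142 to 203 without 1 library. The cause of these changes was not tested, beyond the fewer libraries or genes that some of them used.

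Deviations of same-numbered day 7 libraries from their group means correlated at -0.013, 0.075 and 0.059, so the numbers were not taken to pair the libraries. A replicate block gave 483 higher and 393 lower genes on day 7, 76 and 24 on day 15, 248 and 86 on adipogenic day 7, 4 and 1 for the difference from day 15, and 96 and 131 for that from adipogenic cells. With 1 library left out, the fit took the spread of its group from all groups together. The pseudocount of 1 shrinks changes of genes below about 1 RPKM.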

Other observations

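Feedback genes of the MAP kinase pathway were not covered above. In a list of 12 chosen after values were seen, 4 were higher and 0 lower on osteogenic day 7 (median log2 difference 0.28, against 0.07 over all genes tested). Dusp6, a phosphatase that switches off the kinase ERK, was at 23.1, 21.6 and 29.4 RPKM with vehicle and 66.7, 69.6 and 61.6 RPKM with hormone (log2 difference 1.39, SE 0.10, limma adjusted p = 5.61e-09). Etv5, an ETS transcription factor gene induced by that pathway, went from 8.39, 6.29 and 8.57 RPKM to 23.5, 20.8 and 21.6 RPKM (log2 difference 1.40, SE 0.11). In both genes all hormone libraries lay above all vehicle libraries. The other 2 were Dusp5 (2.19 ± 0.591 to 6.95 ± 1.12 RPKM) and Dusp4 (22.7 ± 5.03 to 37.1 ± 12.5 RPKM), of which Dusp4 overlapped between the groups and lost its call in 4 of the 6 fits that left out 1 library. On day 15 the list had 2 higher genes, and the effect of Etv5 was smaller there by 0.84 on the log2 scale (limma adjusted p = 0.02).

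Kinetochore and spindle genes, also listed after values were seen, had 12 of 17 lower and 0 higher (median -0.78). Without vehicle replicate 2, 6 of them were lower, and after background subtraction 5. Ndc80, for a protein that ties chromosomes to microtubules, went from 10.9, 13.2 and 10.7 RPKM to 5.03, 5.05 and 4.12 RPKM (log2 difference -1.14, SE 0.14). Of 16 DNA replication complex genes 7 were lower and 0 higher (median -0.47), among them Pola1, a DNA polymerase subunit gene, from 9.72 ± 0.782 to 6.17 ± 0.562 RPKM. That count was 4 without hormone replicate 1, 2 with the 2 deepest libraries or only the compared libraries fitted, and 3 after background subtraction. Of 17 genes of the integrated stress response and amino acid synthesis, 3 were lower and 0 higher: Mthfd2, Shmt2 and Atf4, with log2 differences of -0.58, -0.48 and -0.28. The call of Atf4 was lost in 5 of the 6 fits that left out 1 library and that of Shmt2 in 3, so that 1 gene was lower without vehicle replicate 2 or hormone replicate 2. Of 17 immediate early and stress genes 2 were higher and 1 lower (median 0.06), and of 13 stromal and stem cell markers 1 was higher and 1 lower (median -0.22). Over all genes tested, 2.91% were higher and 2.35% lower. The higher immediate early genes, Fosl2 and Junb, lost the call in 5 and 3 of the 6 fits that left out 1 library. Among the stromal markers, Pdgfrb (higher) lost it in 3 and Vcam1 (lower) in 2. Of 9 abundant noncoding RNAs 1 was higher and 0 lower (median -0.19). That gene, the nuclear RNA Neat1, rose from 48.9, 50.0 and 51.2 RPKM to 99.2, 76.2 and 88.8 RPKM (log2 difference 0.80, SE 0.17).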
